A study of Mus musculus with 2 samples.

Results

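Oxt and Avp, the genes of oxytocin and arginine vasopressin, were followed in 2 coronal mouse brain sections profiled with Visium, an array of barcoded spots that counts messenger RNA molecules in place as UMIs (unique molecular identifiers). They are 2 of the 32285 genes in the matrices and were taken by name, because their counts lay in few spots and differed between the sections. Those values are therefore given here as a description, with no test. The first section came from mouse 2, a wild type labelled as a CRISPR-Cas9 edited isogenic control, and the second from mouse 1, a wild type labelled as a C57BL/6J control. Both mice expressed hM3Dq, a designer receptor that raises neuronal activity when its ligand CNO is given, and both received CNO. Sections of 10 µm were cut at 1.9 mm posterior to bregma, and the injection site lay at 4.6 mm. The labels used here leave out the age and sex of the mice, the promoter behind hM3Dq and the edited locus. With 1 section per mouse there is no replicate of either genotype label. Genotype, individual, exact cutting plane and library cannot be told apart, and all intervals below are 95% intervals that cover counting error only.

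Oxytocin and vasopressin are short peptides that differ in few amino acids and are cut from precursors that also contain a carrier protein, a neurophysin. Large neurons of the paraventricular and supraoptic nuclei of the hypothalamus make most of both peptides and send axons to the posterior pituitary, which releases them into blood. Smaller neurons of the hypothalamus and of some other regions release them within the brain. Such cells are clustered in small nuclei, so that a thin section may pass through many of them or through few.

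The genes are neighbours on mouse chromosome 2 and point towards each other. In the RefSeq annotation of GRCm38.p6, Oxt (ENSMUSG00000027301) lies on the plus strand at chr2:130574519-130577054 and Avp (ENSMUSG00000037727) on the minus strand at chr2:130580620-130582588. The records are 3565 bases apart, with 0 annotated genes between them. Both promoter windows, 250 bases before and 50 after the annotated start, were found in the RefSeq table and are shown because the genes were counted together in some spots and apart in others. The Avp window lies at the start of the Avp record. The Oxt window is placed on a start at base 130576169, which is 1650 bases inside the Oxt record.
Oxt, chr2:130575919-130576218, plus strand: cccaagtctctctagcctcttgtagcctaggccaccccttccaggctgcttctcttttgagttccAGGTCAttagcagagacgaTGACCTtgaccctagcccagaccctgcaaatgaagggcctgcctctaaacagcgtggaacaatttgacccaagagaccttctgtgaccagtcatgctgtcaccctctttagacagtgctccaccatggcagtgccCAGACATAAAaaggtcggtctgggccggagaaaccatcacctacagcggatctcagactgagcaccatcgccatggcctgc
Avp, chr2:130582539-130582838, minus strand: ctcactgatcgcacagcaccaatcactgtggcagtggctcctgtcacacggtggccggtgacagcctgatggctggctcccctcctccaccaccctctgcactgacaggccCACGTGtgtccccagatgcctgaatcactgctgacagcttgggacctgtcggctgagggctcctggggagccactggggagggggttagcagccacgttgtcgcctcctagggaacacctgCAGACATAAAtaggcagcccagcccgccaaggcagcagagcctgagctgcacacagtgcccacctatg
Capitals mark the nuclear receptor half-site AGGTCA on either strand, the E-box CACGTG, and the longest stretch that the windows share, CAGACATAAA. The Oxt window held 2 half-sites, 185 and 166 bases before the start, and 0 E-boxes. The Avp window held 1 E-box, 139 bases before the start, and 0 half-sites. The shared stretch of 10 bases began 31 bases before the start in Oxt and 18 bases before it in Avp. Of 32851 windows of 300 bases, 16.3% held the half-site, 7.15% the E-box and 0.067% the shared stretch. These matches describe letters and show no binding.

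The sections differed in depth, with 55315952 UMIs over 3549 spots under tissue in mouse 2 and 30671753 UMIs over 3715 spots in mouse 1. Spots with at least 500 UMIs were used, 3548 in mouse 2 with a median of 14663 UMIs and 3712 in mouse 1 with a median of 7556.5. Spots were grouped into 18 clusters by expression, without the listed genes, and a cluster was named after a brain region where its leading genes included markers of that region. The labelled tissue was met in both, with 640 hippocampus-set spots in mouse 2 and 642 in mouse 1. The hypothalamus set (3 clusters led by Ahi1, Dlk1 and Hap1) covered 694 spots in mouse 2 and 664 in mouse 1. The clusters had unequal parts in it: the Ahi1-led cluster had 154 spots in mouse 2 and 228 in mouse 1, the Dlk1-led cluster 331 in mouse 2 and 347 in mouse 1, and the Hap1-led cluster 209 in mouse 2 and 89 in mouse 1. Over the set, its 13 markers summed to 13773.4 CPM (UMIs per 1000000 UMIs) in mouse 2 and 13863.5 CPM in mouse 1. Most of each sum came from Pmch and Hcrt, peptide genes that differed in opposite directions. Pmch was at 8231.7 CPM in mouse 2 and 6911.2 CPM in mouse 1, and Hcrt at 1480.9 CPM in mouse 2 and 2908.9 CPM in mouse 1. All 4 haemoglobin genes were at least 2-fold higher in the hypothalamus set of mouse 2, as were 1.39% of the 11683 genes compared. The haemoglobin genes summed to 3375.3 CPM there, against 1359.0 CPM in mouse 1. The part of blood in the differences below was not tested.

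Oxt was nearly absent from mouse 2 and abundant in mouse 1. Mouse 2 held 30 Oxt UMIs in 30 spots, each with 1 UMI, which is 0.542 CPM (0.366 to 0.774) and 0.846% of spots. Mouse 1 held 2331 Oxt UMIs in 271 spots, which is 76 CPM (72.9 to 79.1) and 7.3% of spots. A spot is called rich here when it holds at least 10 UMIs of the gene, and by this rule mouse 2 had 0 Oxt-rich spots and mouse 1 had 9. In mouse 1 the lowest Oxt-rich spot had 16 UMIs and the highest spot below the limit had 8.

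Avp was present in both sections and again more concentrated in mouse 1. Mouse 2 held 503 Avp UMIs in 369 spots, or 9.09 CPM (8.32 to 9.92) and 10.4% of spots. Mouse 1 held 1388 Avp UMIs in 450 spots, or 45.3 CPM (42.9 to 47.7) and 12.1% of spots. The shares of spots with an Avp UMI were close at these unequal depths. With every spot thinned to 2000 UMIs they were 1.69% in mouse 2 and 4.41% in mouse 1, and those for Oxt 0.0847% in mouse 2 and 2.05% in mouse 1. Most of the gap in total Avp lay in the rich spots: mouse 2 had 2, with 74 UMIs or 14.7% of its Avp, and mouse 1 had 14, with 743 UMIs or 53.5% of its Avp. Around the limit of 10 UMIs the nearest values were 32 and 6 in mouse 2, and 12 and 9 in mouse 1.

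**Figure D1:**
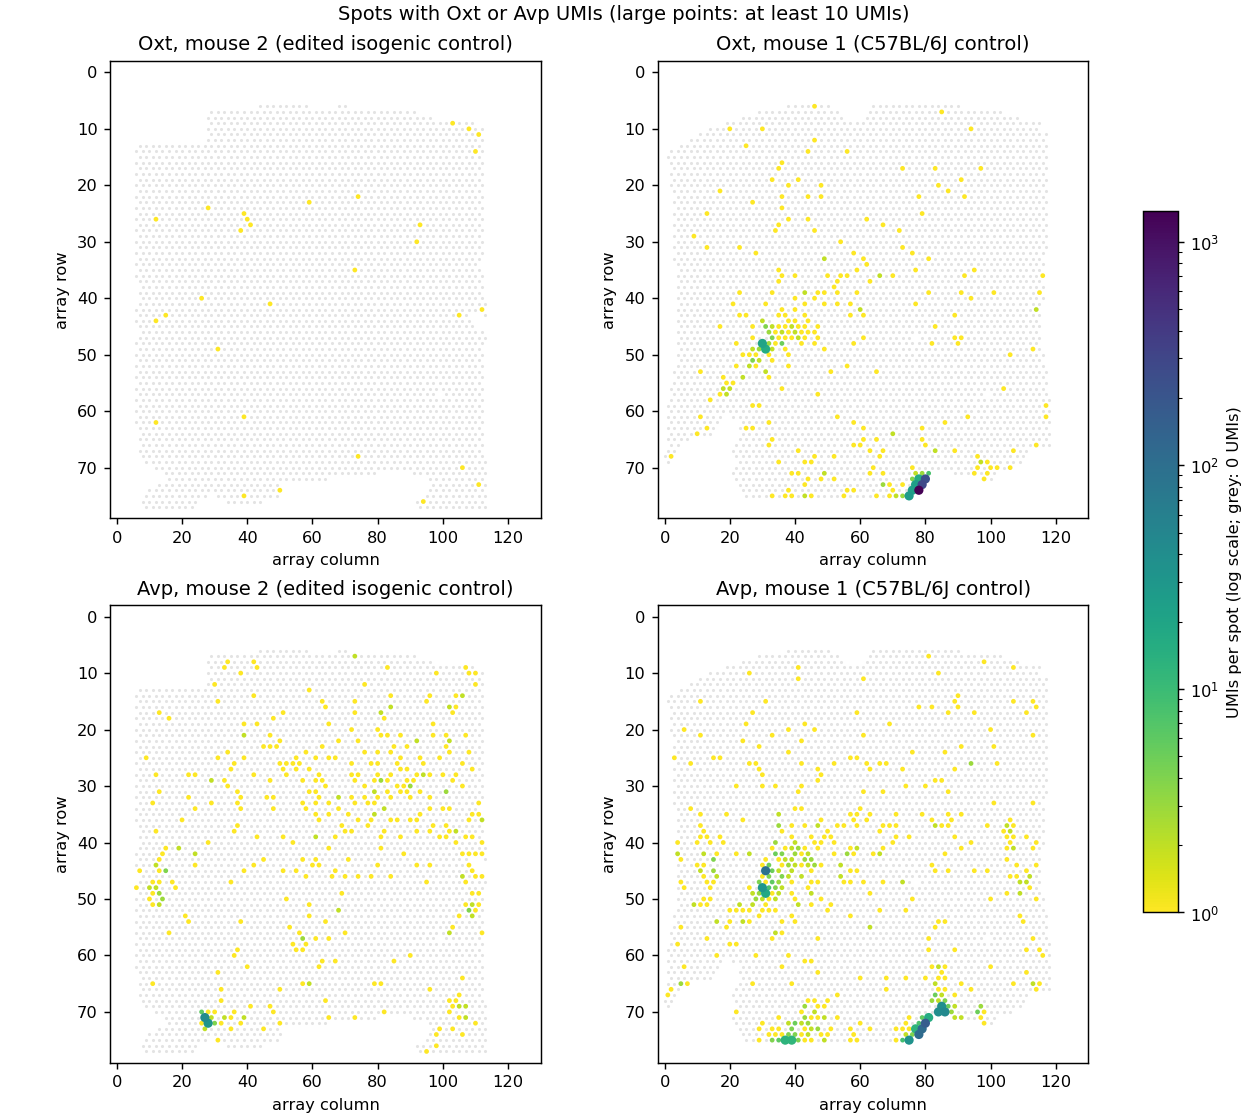
Array positions (row and column of the spot array) of all spots used in mouse 2 (left) and mouse 1 (right), coloured by Oxt (top) or Avp (bottom) UMIs per spot on a log scale, with larger points from 10 UMIs. Oxt reaches 1365 UMIs in 1 spot at the lower edge of mouse 1, whereas all 30 spots with Oxt in mouse 2 hold 1 UMI.

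The Oxt counts of mouse 1 came mostly from 1 spot. That spot held 1365 Oxt UMIs, 58.6% of all Oxt in the section, and the next spots held 279 and 237. Oxt was the most abundant gene in it, at 9.61% of its 14211 UMIs, ahead of mt-Co1 with 315 UMIs. Avp, with 111 UMIs, ranked 7 of the 4202 genes detected there. Among 7441 genes with at least 500 UMIs in mouse 1, Oxt had the largest share in its highest spot and Avp the next, with 12%, against a median gene at 0.41%. Among 9641 such genes in mouse 2, Avp ranked 1 with 8.35%, followed by Hcrt (the precursor of orexin, another hypothalamic peptide) with 7.46%, against a median of 0.354%.

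Spots with at least 10 UMIs of both genes together formed 1 site in mouse 2 and 5 in mouse 1, where a site is a group of adjoining spots. The site of mouse 2 had 2 spots with 42 and 32 Avp UMIs and 0 Oxt. It lay 15.8 spot pitches (the distance between neighbouring spots) left of the tissue middle in array rows 71 to 72. The spots fell in a white matter cluster and in an unnamed cluster led by Ttr, and the nearest hypothalamus-set spot was 1 pitch away. Its leading genes were blood and glial or covering-tissue genes, with Hbb-bs at 44422.5 CPM against 1707.7 CPM in the rest of that section and Myoc at 1275.1 CPM against 10.2 CPM. All 8 white matter markers, all 7 markers of meninges and large vessels and all 4 blood markers were detected there, and 0 of 5 tanycyte markers. All 5 astrocyte markers and 8 of 13 hypothalamus markers were detected as well. Most sites of mouse 1 also held all white matter markers, most held all blood markers, and most held no tanycyte marker. The part of these tissues in the Avp counts was not tested.

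Site 1 of mouse 1 had 9 spots at the lower tissue edge, 8.82 pitches right of the middle, all in the hypothalamus set. It carried 1981 Oxt UMIs, 85% of the Oxt of the section, and 472 Avp UMIs, 34% of its Avp. Across its spots Oxt ran from 3 through a median of 24 to 1365 UMIs. The 3 spots highest in Oxt were also the 3 highest in Avp of the whole section, with 111, 110 and 166 UMIs, but in another order. Among the other 6, a spot with 23 Oxt UMIs had 4 Avp UMIs and a spot with 8 Oxt UMIs had 16 Avp UMIs, so the balance of the peptides changed within a few pitches. Of the 7 pituitary markers 0 were detected in these spots, and the 13 hypothalamus markers were all detected.

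Site 2 held Avp without Oxt 2 pitches from site 1. Its 3 spots had 46, 41 and 37 Avp UMIs and 0 Oxt, where a count of 0 allows up to 3 Oxt UMIs, or 2.42% of its 124 Avp UMIs. The same limit in the site of mouse 2 is 4.05% of 74. Hcrt led the genes of site 2 with 9184.2 CPM, against 2986.6 CPM in other hypothalamus-set spots. Genes of meninges and vessels were high as well, with all 7 detected and Ptgds, a prostaglandin synthase of meninges, at 12288.2 CPM against 975 CPM. Site 5, with 25 Avp and 2 Oxt UMIs in 2 spots, lay 10.9 pitches left of the middle at the lower edge, and Nts, the neurotensin gene, led there with 1275.8 CPM against 33.4 CPM in the rest of the section.

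Sites 3 and 4 of mouse 1 lay far from the hypothalamus set, among thalamus-set spots. Site 3 had 4 spots with 21, 16, 3 and 4 Oxt UMIs and 31, 18, 8 and 6 Avp UMIs. Site 4 was 1 spot, 2 pitches away, with 4 Oxt and 94 Avp UMIs. They were 34 and 36 pitches from site 1 and on the other side of the middle, and the nearest hypothalamus-set spot was 9 and 10 pitches off. Their other genes were those of thalamus: the 9 thalamus markers summed to 4187.9 CPM in site 3 and 4313.4 CPM in site 4, against 359 CPM in hypothalamus-set spots outside the sites. The 13 hypothalamus markers summed to 807 and 827 CPM there, against 14022.3 CPM in those hypothalamus-set spots. The 12 genes listed as other hypothalamic peptides, Hcrt and Pmch among them, summed to 65.4 and 118 CPM, against 10470.0 CPM. Pmch alone made up 7052.3 CPM of the latter. The 16 genes listed as companions of the large neurons, peptide genes among them, summed to 2464.8 and 2363.5 CPM, against 1541.3 CPM. The 11 genes for the processing and secretion of peptides summed to 3904.4 and 3604.3 CPM, against 2879.5 CPM. Neither list was summed over other thalamus-set spots, so these sums do not set the sites apart from the thalamus around them. The part of tissue in them was not tested.

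**Figure D2:**
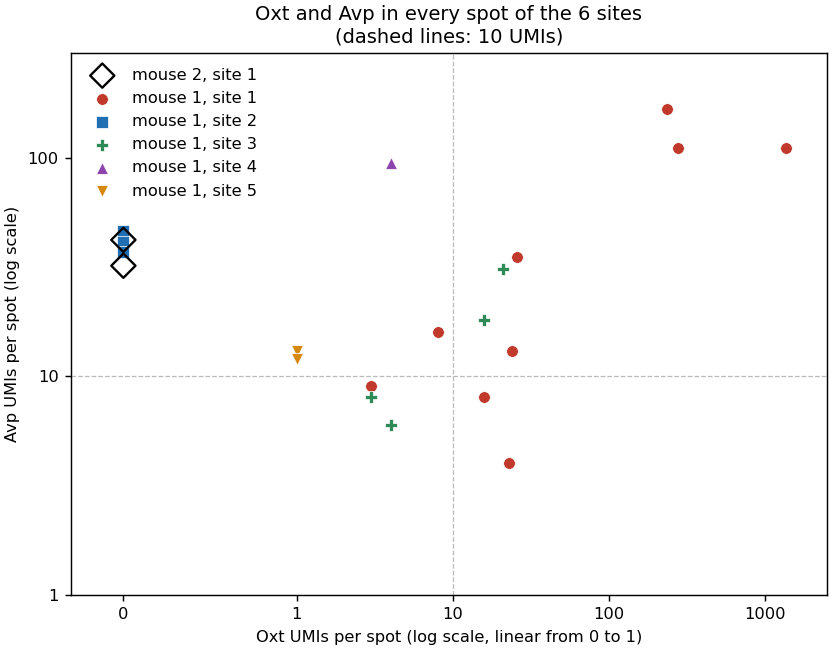
Oxt (horizontal axis) and Avp (vertical axis) UMIs of each spot in the 6 sites, on log scales, with the limit of 10 UMIs dashed. Site 2 of mouse 1 and the site of mouse 2 stand at 0 Oxt, site 4 pairs 94 Avp with 4 Oxt UMIs, and site 1 reaches 1365 Oxt UMIs.

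Across all spots the genes overlapped in part. Both were detected in 5 spots of mouse 2 and in 83 of mouse 1. Of the rich spots of mouse 1, 7 were rich in both genes, 2 in Oxt only and 7 in Avp only, and in mouse 2 both rich spots were rich in Avp only. The number of Avp UMIs per Oxt UMI was 0.238 (0.215 to 0.264) in site 1, 1.43 (0.959 to 2.15) in site 3, 12.5 (3.12 to 109) in site 5 and 23.5 (8.88 to 88) in site 4. The interval of site 1 lay below those of the other sites, while those of sites 4 and 5 overlapped.

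Oxt fell steeply around its highest spot. Starting from the highest spot, the mean was 1365 Oxt UMIs at the spot, 109 over the 3 neighbours under tissue, 47.2 at 2 pitches and 2.12 at 3 pitches. The neighbours were unequal, with 279, 24 and 23 UMIs, so the counts did not fall off evenly in all directions. The 10 spots within 2 pitches, the highest included, held 84.7% of the Oxt of the section and 32.4% of its Avp. Counted from every rich spot, the first ring had 1.93 Oxt UMIs per spot (1.29 to 2.78), 0.867% of the rich spots' mean. For Avp it had 2 UMIs (1.14 to 3.25) or 5.41% in mouse 2 and 3 UMIs (2.44 to 3.65) or 5.65% in mouse 1. For scale, Hcrt dropped to 6.7% in mouse 2 and 5.81% in mouse 1, and Pmch, the precursor of melanin-concentrating hormone, to 4.49% in mouse 2 and 5.28% in mouse 1. Spots of the first ring lie below 10 UMIs by the rule, and the level of the rich spots sets the rest of that percentage.

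**Figure D3:**
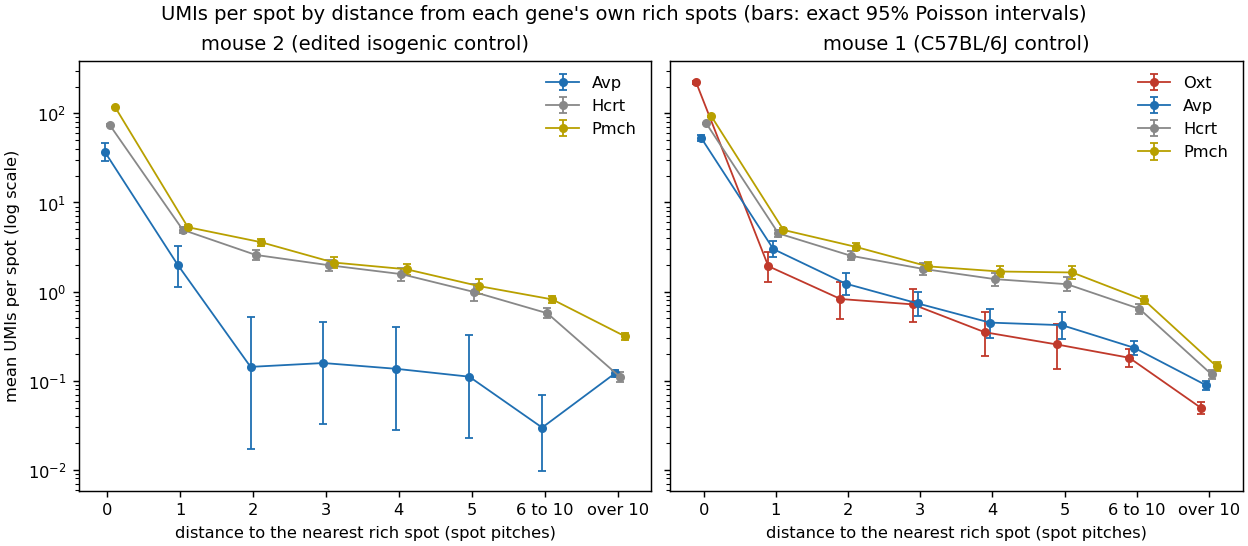
Mean UMIs per spot (vertical axis, log scale) by distance from the nearest rich spot of the same gene (horizontal axis, in spot pitches) in mouse 2 (left) and mouse 1 (right); bars are exact 95% Poisson intervals. Oxt in mouse 1 starts at 223 UMIs per rich spot and stands at 1.93 in the first ring.

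Assigning every spot outside the sites to its nearest site showed where the low counts lay. Within 10 pitches of site 1, 131 spots held 31 Oxt and 23 Avp UMIs, or 35.7 and 26.5 CPM, beside 1981 Oxt and 472 Avp UMIs in the site. Around site 3, 281 spots held 90 Oxt and 139 Avp UMIs, or 33.6 and 51.9 CPM, beside 44 Oxt and 63 Avp UMIs in the site. The Oxt levels around the sites were thus close, and the sites themselves stood at 17046.3 CPM of Oxt in site 1 and 960 CPM in site 3. Of the spots around site 3, 89% belonged to the thalamus set. The Avp per Oxt count around site 3, 1.54 (1.18 to 2.04), overlapped with the 1.43 inside it. Around site 1 it was 0.742 (0.413 to 1.31) and did not overlap with the 0.238 inside. Around site 5, 169 spots held 22 Oxt and 85 Avp UMIs, beside 2 Oxt and 25 Avp UMIs inside it. In mouse 2, 258 spots around the site held 1 Oxt and 32 Avp UMIs.

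Counts also stood at a low level far from any site. In spots over 10 pitches from every rich spot, Oxt was at 0.553 CPM (0.37 to 0.794) in mouse 2 and 5.36 CPM (4.44 to 6.41) in mouse 1, never above 2 UMIs in a spot. Avp was at 7.57 CPM (6.84 to 8.35) in mouse 2 and 11.3 CPM (9.9 to 12.7) in mouse 1. The gap between the mice was thus smaller there than over the whole sections, as the mouse 2 to mouse 1 ratio was 0.103 (0.0663 to 0.156) for Oxt and 0.673 (0.573 to 0.791) for Avp. The part of free RNA in these counts was not tested.

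The low Avp level differed between regions, and its highest region was the same in both mice. In an unnamed cluster led by Pvalb, Six3 and Gad1, genes of inhibitory neurons, Avp was at 32.6 CPM (24 to 43.4) in mouse 2 and 37.2 CPM (24.9 to 53.5) in mouse 1, or 34.9 ± 3.26 CPM (SD, n = 2 mice). This was 4.75 times (3.43 to 6.46) the level of other far spots in mouse 2 and 3.61 times (2.36 to 5.33) in mouse 1. It came from 47 UMIs in 82 spots of mouse 2 and 29 UMIs in 66 spots of mouse 1, with at most 4 in a spot of mouse 2 and 2 in a spot of mouse 1. In mouse 2 it was present on both sides, with 36.4 CPM on the left and 28.9 CPM on the right. In mouse 1 the right had 42.9 CPM and the left, with 14 spots, 17.3 CPM (3.57 to 50.5). By the mean over mice, the Hap1-led hypothalamic cluster came next with 13.1 CPM in mouse 2 and 31.5 CPM in mouse 1, which was 1.77 times (1.08 to 2.74) the other far spots in mouse 2 and 2.89 times (1.47 to 5.14) in mouse 1. A C1ql2-led hippocampal cluster (C1ql2 marks dentate granule cells) followed with 16.2 CPM in mouse 2 and 24.3 CPM in mouse 1, or 2.22 times the other far spots in mouse 2 (1.42 to 3.32) and in mouse 1 (1.13 to 3.95). An unnamed cluster led by Nptxr had 9.63 CPM in mouse 2 and 28.8 CPM in mouse 1. In mouse 1 the intervals of all 3 overlap with that of the Pvalb-led cluster.

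Oxt far from the sites rested on few UMIs in each region. In mouse 2 no cluster held more than 6 of the 29 UMIs, the most in the C1ql2-led cluster at 3.88 CPM (1.43 to 8.45). In mouse 1 the Ahi1-led hypothalamic cluster stood highest with 20.3 CPM (6.58 to 47.3), from 5 UMIs in 55 spots. The Hap1-led hypothalamic cluster ranked 2 in mouse 2 and 3 in mouse 1. It held 4 UMIs in mouse 2, or 5.07 times the other far spots (1.28 to 14.7), and 5 UMIs in mouse 1, or 2.51 times (0.801 to 6.04).

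**Figure D4:**
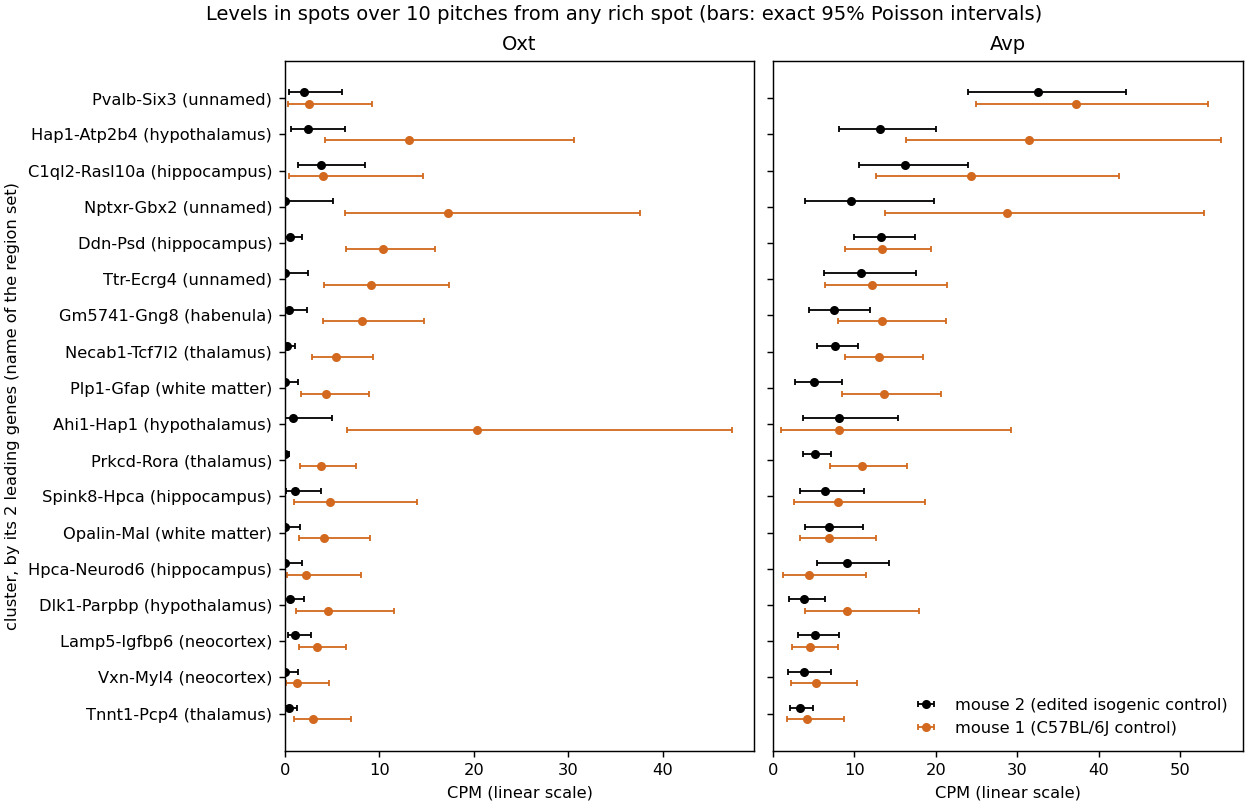
Oxt (left) and Avp (right) CPM in spots over 10 pitches from any rich spot, for 18 clusters ordered by mean Avp level, in mouse 2 (black) and mouse 1 (orange); bars are exact 95% Poisson intervals. The Pvalb-Six3 cluster has the highest Avp level in both mice, 32.6 CPM in mouse 2 and 37.2 CPM in mouse 1.

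With the sites included, the hypothalamus set of mouse 2 held Oxt at 0.939 CPM (0.406 to 1.85), against 402 CPM (385 to 420) in mouse 1. The mean over mice was 202 ± 284 CPM (SD, n = 2), a spread above the mean. Avp in the set was 7.51 CPM (5.79 to 9.6) in mouse 2 and 139 CPM (129 to 150) in mouse 1. The make-up of the set differed between the mice, and its part in the difference was not tested. With the sites included, both genes were also lower in mouse 2 within each cluster of the set. In mouse 2 Oxt was at 1.44 CPM in the Ahi1-led, 0.406 CPM in the Dlk1-led and 1.82 CPM in the Hap1-led cluster, against 1035.9, 183 and 21.3 CPM in mouse 1. Avp was at 7.2, 6.69 and 9.55 CPM in these clusters of mouse 2, against 151, 152 and 35.5 CPM in mouse 1. The 9 spots of site 1 lay in the Ahi1-led and Dlk1-led clusters. Over 10 pitches from any rich spot, Avp in the 3 clusters was at 8.11, 3.74 and 13.1 CPM in mouse 2. In mouse 1 it was at 8.11, 9.06 and 31.5 CPM there. Oxt there was at 0.901, 0.576 and 2.49 CPM in mouse 2, against 20.3, 4.53 and 13.1 CPM in mouse 1. In the hippocampus Avp was 11.5 CPM (9.42 to 13.9) in mouse 2 and 11.9 CPM (8.76 to 15.8) in mouse 1, and in the neocortex 4.62 CPM in mouse 2 and 4.78 CPM in mouse 1, levels whose intervals overlap between the mice. In mouse 2 the Avp level of the hypothalamus set was below that of the hippocampus, with intervals that just overlap. Of all Oxt UMIs 26.7% in mouse 2 and 88.8% in mouse 1 lay in the hypothalamus set, and of Avp 12.7% in mouse 2 and 51.5% in mouse 1.

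Over whole sections, Oxt was the gene lowest in mouse 2 relative to mouse 1 among 15160 genes with at least 50 UMIs, and Avp ranked 15. Oxt had a ratio of 0.00714 (0.0048 to 0.0102), or 140-fold lower in mouse 2. Avp had 0.201 (0.181 to 0.223), or 4.98-fold lower. Both genes were at least 2-fold lower in mouse 2, as were 0.666% of all genes compared, while 0.989% were at least 2-fold higher. This contrast served to choose the genes, so nothing is read from their count. Hcrt was also lower, at 0.457, and Pmch was at 1.11. Mouse 2, with the lower Oxt and Avp counts, had the deeper library. In the hypothalamus set alone, where 0.359% of 11683 genes were at least 2-fold lower, the ratios were 0.00233 for Oxt and 0.054 for Avp. Without the highest spot of each section the Oxt ratio was 0.0166, as that spot held 58.6% of its UMIs in mouse 1.

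**Figure D5:**
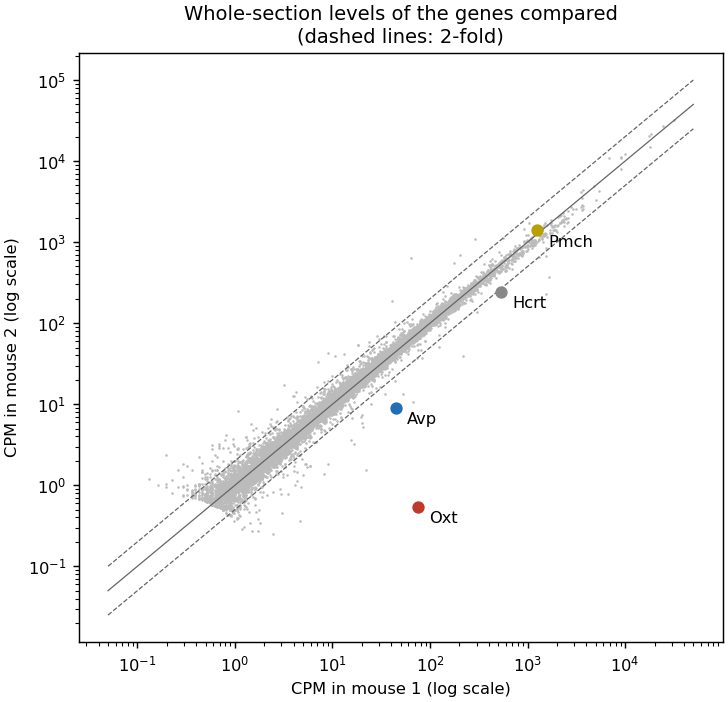
CPM of each gene compared over the whole section in mouse 2 (vertical axis) and mouse 1 (horizontal axis), both on log scales, with dashed lines at 2-fold. Oxt stands at 0.542 CPM in mouse 2 and 76 CPM in mouse 1, farther from the diagonal than Avp at 9.09 CPM in mouse 2 and 45.3 CPM in mouse 1.

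Tissue at the lower edge was present in both sections. From array row 70 on, mouse 2 had 263 spots, 242 of them in the hypothalamus set, and mouse 1 had 196, of which 176 were. The sections share 3366 spot barcodes because both arrays carry the same barcodes. Of the 9 array positions rich in Oxt in mouse 1, 2 lay under tissue in mouse 2, where they held 1 Oxt UMI. Array position does not fix a place in the brain, and the plane of each section within the hypothalamus was not measured here.

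Genes that process and accompany the peptides were compared between site 1 of mouse 1 and the 652 hypothalamus-set spots outside the sites, as values of 1 section with no test. Of 3526 genes with at least 200 UMIs in these spots, 3.06% were at least 2-fold higher in the site and 6.61% at least 2-fold lower. The site held 116213 UMIs, against 4975572 outside. Genes near the limit thus had few UMIs in the site, and these shares include counting error. Of 11 genes for the processing and secretion of peptides, 10 were compared: Pam, which amidates both peptides, was 2.09-fold higher (1.24 to 3.3), Cadps, a factor of vesicle release, was lower at 0.335 (0.091 to 0.863), and the list's median was 0.33 on the log2 scale, against 0.01 for all genes. Scg5, a chaperone of a prohormone convertase, was at 1.67 (1.28 to 2.14). The convertase genes Pcsk1 and Pcsk2 were at 1.12 (0.36 to 2.66) and 1.34 (0.791 to 2.14), intervals that include no difference.

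Of 16 genes listed as companions of the large neurons, 9 were compared, and Calb1 and Calb2, genes of calcium-binding proteins, were above 2-fold at 2.25 (1.62 to 3.06) and 2.12 (1.43 to 3.04). Cartpt, a peptide precursor, was at 1.88 (1.49 to 2.34). The other genes of the companion list, Adcyap1 among them, were below the limit of 200 UMIs and are not compared here. Of the 12 genes listed as other hypothalamic peptides, 5 were compared. Tac1, the precursor of substance P, was 3.21-fold higher (2.36 to 4.29). Hcrt was at 0.156, Pmch at 0.495 and Tac2 at 0 UMIs in the site against 239 UMIs outside. Peptide genes of the hypothalamus thus stood both above and below their surroundings in the site.

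The transcription factors that these neurons need in mouse development were sparse. Of the 8 listed, 1 reached the limit of 200 UMIs, Arnt2, and 0 were at least 2-fold higher by that rule. Otp, Pou3f2 and Sim1 were below the limit, so their ratios rest on few UMIs and no enrichment of the list is read from them. Hmx2, Hmx3, Nhlh2 and Creb3l1 were below it as well and are not compared here. Otp had 7 UMIs in site 1, a level 6.12-fold (2.34 to 13.6) that of the other hypothalamus-set spots, and Pou3f2 had 5 UMIs or 4.55-fold (1.41 to 11.4). Sim1 had 0 UMIs in the site and 11 outside, which leaves its ratio between 0 and 17.1. Arnt2, a partner of Sim1, had 13 UMIs and a ratio of 1.81 (0.954 to 3.15). Of the 6 early response genes, Egr1 and Junb were detected in the site with 5 and 1 UMIs, and Fos had 0 UMIs there and 64 outside.

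Across both sections, genes higher in rich spots than in hypothalamus-set spots that were not rich were mostly blood genes. In mouse 1 these rested on 1 site. Both rich spots of mouse 2 lay outside the hypothalamus set, as did sites 3 and 4 and 2 spots of site 2 in mouse 1. The contrast thus also compares tissues, and the part of tissue in it was not tested. The planned edgeR test needed 5 rich spots in each section and was not run, as mouse 2 had 2. Of 610 genes with enough counts in both sections, 5 or 0.82% were at least 2-fold higher in rich spots of both mice: Hbb-bt, Hbb-bs, Hba-a2, Hba-a1 and Ptgds. Hbb-bs was 24.5-fold higher in mouse 2 and 2.76-fold in mouse 1. Pmch and Tatdn1, 0.328%, were at least 2-fold lower, Pmch at 0.0475 in mouse 2 and 0.242 in mouse 1. Within a section the shares were larger, with 17.8% of genes at least 2-fold higher and 15.5% lower in the rich spots of mouse 2, and 7.63% higher and 1.33% lower in those of mouse 1. In mouse 1 the blood genes came mostly from site 2. Its 3 rich spots carried 801 of the 1015 UMIs of the 4 haemoglobin genes in the 19 spots rich for both peptides summed. Without them the other 16 stood at 1017.4 CPM, below the 1375.7 CPM of hypothalamus-set spots that were not rich. Without site 2, an alternative chosen after seeing the data, 0 genes were at least 2-fold higher in rich spots of both mice and 3 were lower (Pmch, Hcrt and Tatdn1).

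Receptor messages were rare. Oxtr, the oxytocin receptor, had 117 UMIs in mouse 2 and 46 in mouse 1, or 2.12 CPM (1.75 to 2.53) in mouse 2 and 1.5 CPM (1.1 to 2) in mouse 1. Its level in the hypothalamus set was 5.17 CPM (3.75 to 6.94) in mouse 2 and 2.72 CPM (1.49 to 4.57) in mouse 1, against 0.965 CPM (0.581 to 1.51) in mouse 2 and 0.496 CPM (0.161 to 1.16) in mouse 1 in the thalamus set. Avpr1a, the main vasopressin receptor of the brain, had 42 UMIs in mouse 2 and 34 in mouse 1, and its level in the hypothalamus set was 2.47 CPM (1.53 to 3.77) in mouse 2 and 4.08 CPM (2.53 to 6.24) in mouse 1. In the hippocampus it had 0 UMIs in both, which allows up to 0.322 CPM in mouse 2 and 0.742 CPM in mouse 1. Avpr1b had 2 UMIs in mouse 2 and 0 in mouse 1, and Avpr2, the kidney receptor, had 0 in both.

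Near the sites the receptor counts were low. Within 3 pitches of a site, Oxtr had 3 UMIs in 43 spots of mouse 2, or 7.59 CPM (1.57 to 22.2), and 5 UMIs in 157 spots of mouse 1, or 2.75 CPM (0.891 to 6.41). Avpr1a there had 1 UMI in mouse 2, or 2.53 CPM (0.0641 to 14.1), and 6 UMIs in mouse 1, or 3.29 CPM (1.21 to 7.17). The ratio to all other spots was 3.66 (0.743 to 11) in mouse 2 and 1.93 (0.596 to 4.88) in mouse 1 for Oxtr. For Avpr1a it was 3.39 (0.0838 to 20) in mouse 2 and 3.39 (1.15 to 8.35) in mouse 1. In mouse 1 this pools sites of the hypothalamus and thalamus sets. The CPM intervals overlap with the levels of the hypothalamus set. In site 1 both receptors had 0 UMIs, which at 116213 UMIs allows up to 25.8 CPM, a limit above those levels. Lnpep, the enzyme that cleaves both peptides, was found in all regions, at 50 CPM (48.2 to 51.9) in mouse 2 and 35.7 CPM (33.6 to 37.8) in mouse 1. Cd38, which oxytocin release in mice requires, was at 6.56 CPM (5.9 to 7.27) in mouse 2 and 5.12 CPM (4.35 to 5.99) in mouse 1. None of the 3 genes compared in this list differed 2-fold between the hypothalamus sets of the mice.

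Among the other listed genes of these neurons, few differed 2-fold between the hypothalamus sets of the mice. Of 11 processing genes 0 differed 2-fold, with a median of 0.12 on the log2 scale, against 0.13 for all 11683 genes, of which 1.39% were at least 2-fold higher in mouse 2. Of the 16 companion genes 1 was higher in mouse 2, Rasd1 at 9.98 CPM against 2.92 CPM in mouse 1. Of 9 genes compared from the list of other hypothalamic peptides, Npy was at least 2-fold higher at 2.33 times mouse 1. Pomc and Th, a pair among the 0.359% of all genes at least 2-fold lower, were at 0.315 and 0.469. Th is in that list but encodes an enzyme, tyrosine hydroxylase, and no peptide. Hcrt, with the most UMIs of these after Pmch, was at 0.509, just inside 2-fold. Crh, made by small neurons of the paraventricular nucleus, was at 9.63 CPM in mouse 2 and 13.6 CPM in mouse 1. Otp was at 13.7 CPM in mouse 2 and 11.7 CPM in mouse 1.

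Across the spots of each section no gene followed either peptide closely. Likeness was measured as Pearson's r of log2(CPM + 20) over all spots, for 11949 genes with at least 100 UMIs in each section, ranked by the lower r of both sections. Avp itself correlated with Oxt at 0.018 in mouse 2 and 0.286 in mouse 1. Most like Oxt were Unc5d, 2010204K13Rik, Fam183b, Slc16a11, Gpr101, Rasgrf2, Ece2, Ly6h, Ahi1 and Zdbf2, from 0.06 down to 0.048. Most like Avp were Six3 at 0.09 in mouse 2 and 0.081 in mouse 1, then Trh, Sncg, Gpx1, Fabp7, Calb2, Vat1l, Kcnip1, Nnat and Pacsin2. Spots share their library and depth, counts were sparse, and values this near 0 give no finding about any of these genes.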

How the data were processed

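The deposited files hold whole UMI counts per gene and spot under tissue, aligned by the authors to mm10 (build named in the submitters' processing notes). The tool was Space Ranger 1.3.1, as the matrix headers state; its settings are not given in the labels. Deposited position lists gave each spot's array row and column. Spots with at least 500 UMIs were kept (3548 in mouse 2, 3712 in mouse 1; 1 and 3 left out). A spot can hold several cells, so no spot is called a cell, and fewer cells cannot be told apart from less RNA per cell. CPM are UMIs per 1000000 UMIs of the same spots. Intervals are exact Poisson, binomial (Clopper-Pearson) or conditional ratio intervals at 95%. Distances are steps on the hexagonal array. Clusters came from scanpy 1.11.5 (Leiden, resolution 1, 2000 variable genes, 30 components, both sections together, 61 listed genes left out). A cluster was named where at least 3 markers of a set were in its top 100 genes, 1 in its top 10, and no other set had more there; the last 2 conditions were added after seeing the data. A site joins adjoining spots with at least 10 UMIs of Oxt and Avp together. Named genes were Oxt, Avp, members of the lists with at least 20 UMIs in the spots compared, and the 10 genes most like each. Genes beyond 2-fold in rich spots of both sections were also named. Sim1, Avpr1b and Avpr2 were named below 20 UMIs, with their counts. Leading genes of a site were chosen after their values were seen. Members, lists and motifs were chosen with earlier results of these data known. The planned edgeR test was not run. The ratio step was tested on simulated data, and the distance formula on a few pairs of positions with known distance. Python 3.11.15, numpy 2.4.6, scipy 1.17.1 and pandas 2.3.3 were used. Sequences are from RefSeq (GRCm38.p6).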

Additional observations from a re-analysis of the deposited data

How the results depend on the processing

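Of the 66 recomputed values, 27 moved and 39 did not, by the limits of 1 SD, the counting interval or 1.5 times for a count. Those 39 include the hypothalamus-set means with 1 mouse left out, where the SD of Oxt over the mice is 284 CPM, above the mean of 202 CPM. None reversed. Without mitochondrial genes Oxt in mouse 1 was 87.7 CPM, and Avp was 10.7 CPM in mouse 2 and 52.2 CPM in mouse 1. With each spot thinned to 2000 UMIs, 0.0847% of spots in mouse 2 and 2.05% in mouse 1 held Oxt, and 1.69% in mouse 2 and 4.41% in mouse 1 held Avp. With a limit of 5 UMIs mouse 1 had 27 Avp-rich spots, and with 20 UMIs it had 9. The mean per spot of the first ring around the highest spot was 7.96% of that spot for Oxt in mouse 1, and for Avp 16.7% in mouse 2 and 21.1% in mouse 1; as a mean of spot CPM from every rich spot it was 7.48% for Avp in mouse 1. The mouse 2 to mouse 1 ratio was 0.00233 (Oxt) and 0.054 (Avp) in the hypothalamus set, 0.0166 (Oxt) without the highest spots, and 0.103 (Oxt) and 0.673 (Avp) far from rich spots, a setting chosen after seeing the data. In hypothalamus-set spots alone, 0 of the 10 genes most like Oxt or Avp were shared with the lists over all spots. With rich spots from 5 UMIs, 2 genes were higher and 1 lower in both sections; without site 2 of mouse 1, chosen after seeing the data, 0 were higher; with 1 mouse left out the counts were 109 to 504 higher and 88 to 95 lower, since agreement of both is no longer asked. Leaving out a mouse moved the mean in the hypothalamus set between 0.939 and 402 CPM for Oxt and between 7.51 and 139 CPM for Avp. DESeq2, other scaling, no filter and no mouse term belong to the edgeR test that was not run. No paired analysis was possible because each mouse gave 1 section and no test was made.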
